A study of Mus musculus with 2 samples.

Results

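The deiodinase gene *Dio3* and 9 other imprinted genes that regulate growth (*Dlk1*, *Igf2*, *H19*, *Meg3*, *Cdkn1c*, *Peg3*, *Mest*, *Grb10* and *Plagl1*) were followed in newborn mouse ureters in which WNT secretion was blocked. The genes were found by their name in the array files, and all 10 of them were present among 29924 gene names, with 20 probes between them. They were picked with measurements of this same comparison known. Their values are therefore a description and carry no test. Ureters of wildtype NMRI mice were taken at P0 and cultured for 18 h, either with 5 µM IWP-2 or with its solvent DMSO at 1:1000. IWP-2 inhibits PORCN, the acyltransferase that WNT ligands need in order to be secreted. Total RNA was compared on 2 two-colour Agilent arrays, each with a control pool and an IWP-2 pool of ureters from pups of the same sex, so that single animals are not seen. The pools were female in replicate 1, with IWP-2 in the red channel, and male in replicate 2, with IWP-2 in the green channel. Sex and dye orientation therefore cannot be told apart.

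Imprinted genes are expressed mainly from the maternal or mainly from the paternal chromosome. Many of them act on fetal growth, with several growth promoters expressed from the paternal copy and several growth inhibitors from the maternal copy. They lie in clusters that share imprinting control regions, such as the *Dlk1*-*Dio3* cluster on chromosome 12 and the *H19*-*Igf2* and *Cdkn1c* clusters at the end of chromosome 7. *Dio3*, at the far end of the first cluster, encodes the enzyme that inactivates the thyroid hormones T4 and T3. Fetal tissues use it to keep active hormone low.

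The RNA of 3 transcripts discussed here is noncoding, and the probes for them are shown because they decide what each value stands for. The array files place them on mm9, and capitals mark the bases in which the *Dio3os* probes differ. The *H19* probes lie at chr7:149761492-149761551 (probe 1, brighter) and chr7:149762417-149762476 (probe 2) on the minus strand.
H19 probe 1: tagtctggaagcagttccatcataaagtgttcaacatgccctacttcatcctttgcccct
H19 probe 2: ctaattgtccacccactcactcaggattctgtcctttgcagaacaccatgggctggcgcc
Of the 3 *Meg3* probes, probe 1 (the brightest) lies at chr12:110809678-110809737 and probe 3 at chr12:110799558-110799617, both on the plus strand.
Meg3 probe 1: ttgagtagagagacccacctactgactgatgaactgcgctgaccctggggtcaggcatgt
Meg3 probe 3: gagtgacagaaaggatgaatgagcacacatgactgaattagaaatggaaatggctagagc
Both *Dio3os* probes lie at chr12:111514921-111514980 on the minus strand and differ in 3 of 60 bases (T12A, T55A and T57A, counted from the 5′ end, with the brighter probe first).
Dio3os probe 1: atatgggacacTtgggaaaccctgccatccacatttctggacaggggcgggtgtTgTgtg
Dio3os probe 2: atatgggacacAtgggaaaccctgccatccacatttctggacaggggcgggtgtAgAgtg

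Each probe was printed as 4 spots, and 3 or 4 spots per array remained for each probe of these genes after outlier-flagged spots had been left out. Signals are background-corrected intensities after loess normalization, and a ratio is the log2 of IWP-2 over control within an array. All 20 probes carried the scanner software's flag for a signal well above background in all 4 channels, although *H19* probe 2 lay near the floor of 15. The inhibitor and the pools were checked on *Axin2*, a feedback target of WNT signaling, and on sex-linked transcripts. *Axin2* fell from 181 to 42.2 in replicate 1 and from 154 to 46.7 in replicate 2 (limma adjusted p = 0.000824), and *Xist* and *Ddx3y* were detected in the female and male array only, respectively. Among 14336 tested genes, the median ratio was near 0 in both arrays, and ratios differed between the arrays by a median of 0.10.

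*Dio3* was the single gene of the 10 that was lower in both arrays by more than 1.5-fold. Its control signal was 235 in replicate 1 and 210 in replicate 2, and its signal with IWP-2 was 146 and 122. Both IWP-2 pools lay below both control pools. The female array gave a ratio of −0.69 and the male array −0.79. The mean, −0.74, is a level 1.67-fold lower. The spots for control ranged from 223 to 241 and those for IWP-2 from 141 to 150 in replicate 1. In replicate 2 they ranged from 202 to 217 and from 118 to 125, so that the channels did not overlap in either array. The only *Dio3* probe lies at chr12:111518792-111518851 on the plus strand of mm9, in transcript NM_172119, and the files do not give the exon. *Dio3* was the 45th lowest of the 14336 tested genes by mean ratio.

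**Figure D1:**
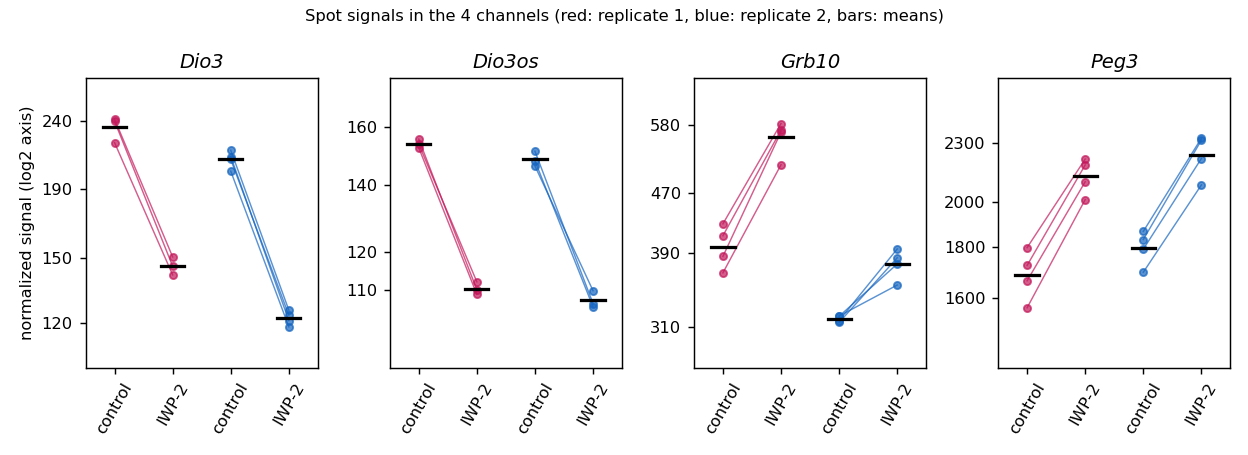
Normalized signals of single spots (log2 axis) for the brightest probe of *Dio3*, *Dio3os*, *Grb10* and *Peg3*. Lines join the control and IWP-2 signal of a spot in replicate 1 (red, female pools) and replicate 2 (blue, male pools), and bars are means. *Dio3* went from 235 to 146 and from 210 to 122, *Dio3os* was lower with IWP-2 in both arrays, and *Grb10* and *Peg3* were higher in both.

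By the study's filter, a gene counted when its control channel exceeded 100 and it changed 1.5-fold the same way in both arrays. It was applied here to the loess-normalized ratios of the brightest probe, so its counts are not those the study reported. It kept 51 genes as lower (0.363% of the genes with enough signal) and 11 as higher (0.0783%). All 10 imprinted growth genes had enough signal, 1 of them (*Dio3*) was among the lower genes, and 0 were among the higher genes. In a limma fit over all tested genes, 127 genes were called lower (0.886%) and 52 higher (0.363%). Of the 10 genes, 1 (again *Dio3*) was lower and 0 were higher by this rule. As the genes were chosen on this comparison, nothing is read from these counts. The limma call of *Dio3*, like every other limma call, was lost without the signal filter or with a filter on signals well above background, and the filter call was lost at 2-fold. The median of the mean ratios was 0.03 over the 10 genes and −0.01 over all tested genes.

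The genes with the most similar pair of ratios to *Dio3* were *Chst11* (a chondroitin sulfotransferase), *Csrp2* (a LIM domain protein of muscle cells), *Adra2a* (an adrenergic receptor), *Notum* (a secreted enzyme that inactivates WNT ligands) and *Tnfaip6* (a hyaluronan-binding protein). Likeness was the Euclidean distance over the ratios of 2 arrays, which ranged from 0.029 for *Chst11* to 0.0945 for *Tnfaip6*. The ratios of *Chst11* were −0.71 and −0.78, and those of *Notum* were −0.67 and −0.72. With 2 values per gene, the distance orders genes only by the size of the change.

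*Dio3os*, a noncoding transcript on the opposite strand beside *Dio3*, moved in the same direction. It belonged to a list of other imprinted genes and was not among the 10. The brighter *Dio3os* probe went from 154 to 110 in replicate 1 and from 149 to 107 in replicate 2. Its spots did not overlap between the channels of either array. The ratios were −0.48 and −0.47. Their mean was −0.48 ± 0.066 (limma's moderated standard error, which draws on all tested genes), with an adjusted p of 0.0331 from limma over all tested genes. It did not reach the 1.5-fold change of the study's filter. The limma call was lost when both *Dio3os* probes were averaged (adjusted p = 0.0575) and under both changes of the signal filter (adjusted p = 0.465 and 0.369). The second *Dio3os* probe, which differs from the first in the capital letters shown above, went from 101 to 71.6 and from 98.9 to 69.4. Its ratios were −0.49 and −0.51. The probes for *Dio3os* and *Dio3* start 3.87 kb apart.

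The stretch before the start of *Dio3* is shown with the core motif of TCF/LEF factors, the DNA-binding partners of β-catenin. It holds 250 bases upstream of the RefSeq start, at chr12:110278980-110279229 on the plus strand of GRCm38.p6, and is 69.6% G or C. This build differs from that of the probes. The core of the TCF/LEF motif was searched as CTTTGA or CTTTGT on both strands, and the match is in capitals.
Dio3 upstream: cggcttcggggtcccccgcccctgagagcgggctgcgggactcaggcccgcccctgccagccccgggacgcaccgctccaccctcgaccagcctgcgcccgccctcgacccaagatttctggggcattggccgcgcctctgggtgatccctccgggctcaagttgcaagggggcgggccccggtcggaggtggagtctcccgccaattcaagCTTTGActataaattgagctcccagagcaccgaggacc
The single match begins 38 bases before the start. In windows of 300 bases (250 before and 50 after the start), 31.2% of all 32851 promoters in the RefSeq table held a match. Of the 10 genes, 8 had an entry, with 15 promoters in all, and 3 of these promoters held a match (*Dio3*, 1 of *Igf2* and 1 of *Meg3*). The *Dio3os* promoter held none. A match of these letters is a description of the sequence and does not show binding.

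At the other end of the cluster, *Dlk1*, which encodes a transmembrane protein related to NOTCH ligands, hardly changed. Its brighter probe went from 18214 to 17367 in replicate 1 and from 17505 to 17632 in replicate 2. The ratios were −0.07 and 0.01, and the spots of both channels overlapped in both arrays. The second *Dlk1* probe gave 0.00 and −0.16, and its spots did not overlap in replicate 2. *Dlk1* lies 820 kb from *Dio3*, and the largest change of either *Dlk1* probe in an array was 1.11-fold.

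*Meg3*, a maternally expressed noncoding RNA between *Dlk1* and *Dio3*, moved in opposite directions in the arrays. Probe 1 went from 6771 to 6305 in replicate 1 and from 5541 to 6423 in replicate 2, with ratios of −0.10 and 0.21. Probe 2 went from 1338 to 1236 and from 1033 to 1477, with ratios of −0.11 and 0.52. Probe 3 went from 120 to 74.5 and from 63.0 to 74.9, with ratios of −0.68 and 0.25. All 3 probes were lower with IWP-2 in the female pools and higher in the male pools, but the spots of probe 1 overlapped between the channels in replicate 1. The size of the difference between the arrays ran from 0.32 for probe 1 to 0.93 for probe 3. For probe 1 and for probe 3, the IWP-2 signal was about the same in both arrays, whereas the control signals of all 3 probes were higher in replicate 1. Signals were not normalized between the arrays, so this comparison of levels is limited. On their brightest probes, *Plagl1*, *Mest* and *Cdkn1c* also had a higher control signal in replicate 1, whereas *H19* and *Peg3* had a lower one.

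The same reversal was seen along the stretch that follows *Meg3*, which holds mostly noncoding transcripts. It was singled out after the values had been seen. From *Meg3* to *Mirg*, a host transcript of a large group of microRNAs, 11 probes covered 205 kb, of which 2 were at the floor in all channels. Of the other 9, 8 probes of 4 genes were lower in replicate 1 and higher in replicate 2, and the exception, *AK053394*, was detected in replicate 1 only. The 8 included the 3 probes of *Meg3* itself, described above, and a dim probe of *6430411K18Rik* that read only 38.6 to 53.9. The ratios of the 8 had a median of −0.25 in replicate 1 and 0.25 in replicate 2. *Mirg* went from 517 to 481 and from 439 to 486 on its brighter probe. Its other detected probe went from 465 to 281 and from 212 to 313, with ratios of −0.72 and 0.56. The unnamed transcript *1110006E14Rik* gave −0.35 and 0.25 on its brighter probe and −0.27 and 0.31 on the other. Over all 23256 probes above the floor, 21.4% were lower in replicate 1 and higher in replicate 2. These neighbouring probes may share transcripts and are not independent of each other. Sex, dye and array changed together, and their parts in the reversal cannot be told apart.

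**Figure D2:**
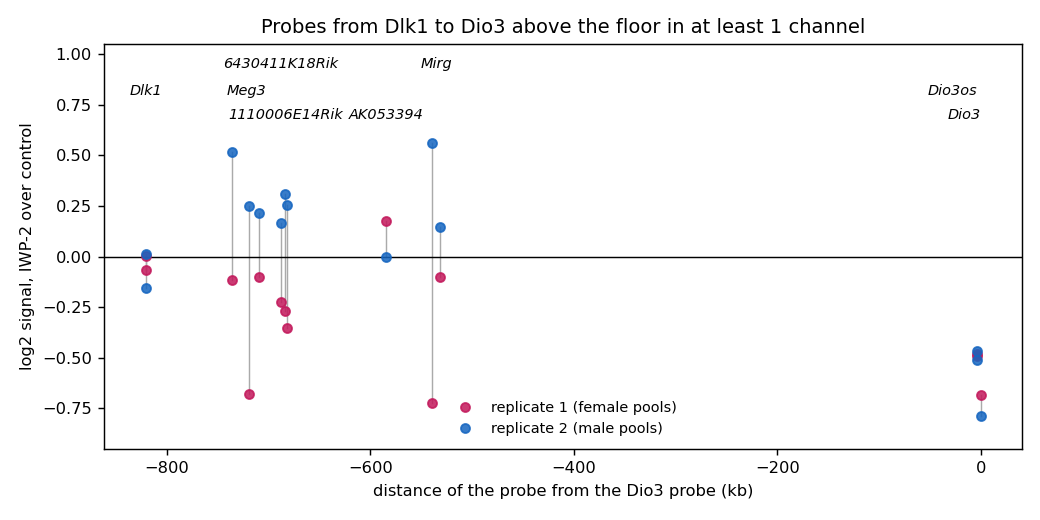
Log2 ratio of IWP-2 over control (vertical axis) against the distance of each probe from the *Dio3* probe in kb (horizontal axis), for probes above the floor in at least 1 channel. Red points are replicate 1 (female pools) and blue points replicate 2 (male pools), joined by a grey line. *Dio3* and *Dio3os* lay below 0 in both arrays, and 8 probes from *Meg3* to *Mirg* lay below 0 in replicate 1 and above 0 in replicate 2.

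*Plagl1*, a zinc finger transcription factor gene expressed from the paternal copy, also split between the arrays, and its 4 probes fell into pairs. The brightest probe went from 18210 to 17052 in replicate 1 and from 15027 to 17281 in replicate 2, with ratios of −0.09 and 0.20. The second probe gave −0.09 and 0.19, and its spots overlapped between the channels in replicate 1. These 2 probes share the run atctcctaacctttgatgactctgta of 26 bases and are not separate measurements of it. On mm9 they are placed at chr10:12850832-12850891 and chr10:12851280-12851339, which do not overlap. How they come to share the run was not examined. The dimmer probes were higher with IWP-2 in replicate 1, with no overlap of spots, and near 0 in replicate 2. Probe 3 went from 199 to 278 and from 257 to 248, with ratios of 0.48 and −0.05. Probe 4 went from 55.2 to 81.2 and from 57.8 to 58.3, with ratios of 0.56 and 0.01. All 4 lie within 2.9 kb of the same transcript, so the name *Plagl1* has no single ratio in these data.

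Among the 10 genes, *Meg3* and *Plagl1* were the 2 whose brightest probe moved in opposite directions by more than 2 SDs of its spots in each array. Of all tested genes, 14.9% did so, and 7.83% did so in the order of *Meg3* and *Plagl1*, lower in replicate 1 and higher in replicate 2. A difference between the arrays at least as large as that of *Meg3* was seen in 7.95% of tested genes, and at least as large as that of *Plagl1* in 9.43%. The summed signal of smooth muscle markers was level in replicate 1 and higher with IWP-2 in replicate 2. The sum of 6 of them (*Acta2*, *Myh11*, *Tagln*, *Cnn1*, *Smtn* and *Actg2*) went from 97752 to 97659 in replicate 1 and from 83642 to 97920 in replicate 2, and none of the 6 was at the floor. *Adipoq*, a fat cell gene, gave ratios of −0.55 and 1.40, while the fat markers *Lep* and *Cidec* were at the floor. The sum of 4 fat markers went from 353 to 268 and from 111 to 237. The sum of 4 skeletal muscle markers, of which *Myog* was at the floor, went from 7350 to 6656 and from 5069 to 5667. One of them, *Ckm*, serves the study as a marker of late smooth muscle cells. This sum is therefore not specific to skeletal muscle. The sum of 4 endothelial markers, none of them at the floor, went from 12230 to 11098 and from 10170 to 10691. The part of these cell types in the values of *Meg3* and *Plagl1* was not tested.

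On the brightest probe, *Grb10* and *Peg3* were the genes that were higher with IWP-2 in both arrays with no overlap of spots. They are 2 of the 10, beside 7.92% of all tested genes that were higher by the same criterion, and *Dio3* was the 1 gene lower, beside 8.7%. *Grb10* encodes an adaptor protein that dampens insulin and IGF receptor signaling. It went from 398 to 558 in replicate 1 and from 318 to 377 in replicate 2. The ratios were 0.49 and 0.25, with a mean of 0.37, and each IWP-2 pool lay above the control pool of its array. *Peg3*, a paternally expressed zinc finger gene, went from 1688 to 2127 and from 1798 to 2234. Its ratios of 0.33 and 0.31 differed by 0.02, the smallest gap between the arrays among the 10 genes. The second *Peg3* probe, 2.6 kb away, went from 174 to 221 and from 150 to 225, with ratios of 0.35 and 0.59. The latter was the only increase of 1.5-fold or more among the 20 probes.

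The *H19*-*Igf2* cluster changed little. *Igf2*, the fetal growth factor expressed from the paternal copy, went from 645 to 559 in replicate 1 and from 577 to 559 in replicate 2. It was lower in both arrays, with ratios of −0.21 and −0.05, but the spots overlapped in replicate 2. *H19*, the maternally expressed noncoding RNA beside it, went from 26191 to 27834 and from 29519 to 30237 on probe 1. The ratios were 0.09 and 0.03, and the spots overlapped in replicate 2. Probe 2, less than 1 kb away, read only 16.9 to 19.7 in the 4 channels, near the floor of 15, and its spots overlapped in both arrays.

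*Cdkn1c*, which encodes the cyclin-dependent kinase inhibitor p57 and is expressed from the maternal copy, went from 4389 to 4471 and from 3837 to 3810. The ratios were 0.03 and −0.01 and the spots overlapped in both arrays. Its neighbour *Kcnq1*, a potassium channel gene noted after its values were seen, was lower in both arrays on both of its probes. The brighter probe went from 93.5 to 58.8 and from 88.8 to 63.3, with ratios of −0.67 and −0.49. The second gave −0.69 and −0.58. Both probes are placed almost at the same position, 851.336 and 851.345 kb from the brighter *H19* probe. They overlap and are not independent of each other. The signals of both *Kcnq1* probes were below 100, so *Kcnq1* was not tested, and limma called it lower after normexp background correction, which raises low signals.

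*Mest*, a paternally expressed gene of a predicted hydrolase, had 3 bright probes with small ratios. The brightest went from 16487 to 16098 in replicate 1 and from 15090 to 15764 in replicate 2, with ratios of −0.03 and 0.06. Probe 2 gave 0.15 and 0.08, and probe 3 gave 0.15 and 0.19. The spots of probes 2 and 3 did not overlap between the channels in either array, whereas those of the brightest probe overlapped in both. The largest change of any *Mest* probe was 1.14-fold.

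**Figure D3:**
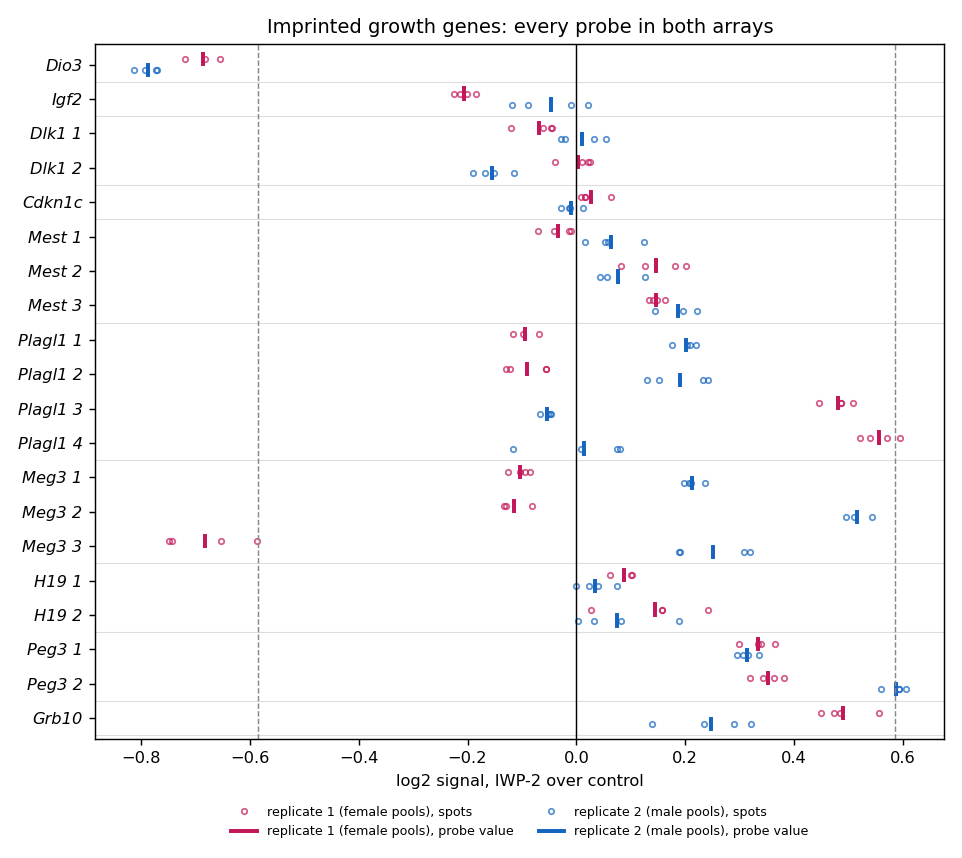
Log2 ratio of IWP-2 over control for all 20 probes of the 10 genes, ordered by the mean ratio of the brightest probe and numbered by brightness. Open circles are spots and bars are probe values of replicate 1 (red, female pools) and replicate 2 (blue, male pools), and dashed lines mark a 1.5-fold change. *Dio3* lay beyond the lower line in both arrays, and no probe lay beyond the upper line in both.

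Counted by direction on the brightest probe, 2 of the 10 genes (*Dio3* and *Igf2*) were lower in both arrays, 3 (*Grb10*, *H19* and *Peg3*) were higher in both, and 5 had opposite signs. Of all tested genes, 45.2% had opposite signs. Apart from *Dio3*, the mean ratios ran from −0.13 for *Igf2* to 0.37 for *Grb10*, all closer to 0 than that of *Dio3*.

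A list of 64 genes, called other imprinted genes here, was described in the same way. It held 26 neighbours in the imprinted clusters of the 10 genes and 38 imprinted genes elsewhere. Imprinting in the ureter was not measured. Of the 64, 63 were on the array and 43 were tested. Limma called 1 lower (*Dio3os*) and 0 higher, and the study's filter kept 0. At an unadjusted p under 0.05, 6 were lower (14.0%, beside 6.64% of all tested genes) and 5 higher (11.6%, beside 6.27%). Of these 5, 3 (*Zim1*, *Inpp5f* and *Klf14*) had a mean control signal of 100 or less and were tested only through their higher IWP-2 signal. The median of the mean ratios was −0.01, as over all tested genes. The brightest genes of the list were *Dcn* (decorin of the matrix, −0.20 and −0.03), *Gnas* (the stimulatory G protein, −0.05 and 0.12) and *Cd81* (a tetraspanin, −0.06 and 0.05). The next genes were noted after their values were seen, and none of them passed limma's threshold. *Sfmbt2*, a polycomb group gene, went from 145 to 188 and from 123 to 165 (limma adjusted p = 0.0547). It was called higher with median centring or normexp background correction. *Zim1*, a neighbour of *Peg3*, went from 89.6 to 123 and from 92.1 to 117. *Nnat*, a gene of a small membrane proteolipid, went from 291 to 235 and from 285 to 203 (limma adjusted p = 0.0778). *Igf2r*, whose product clears IGF2, went from 7620 to 5684 and from 6458 to 5477, with ratios of −0.42 and −0.24 (limma adjusted p = 0.123).

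**Figure D4:**
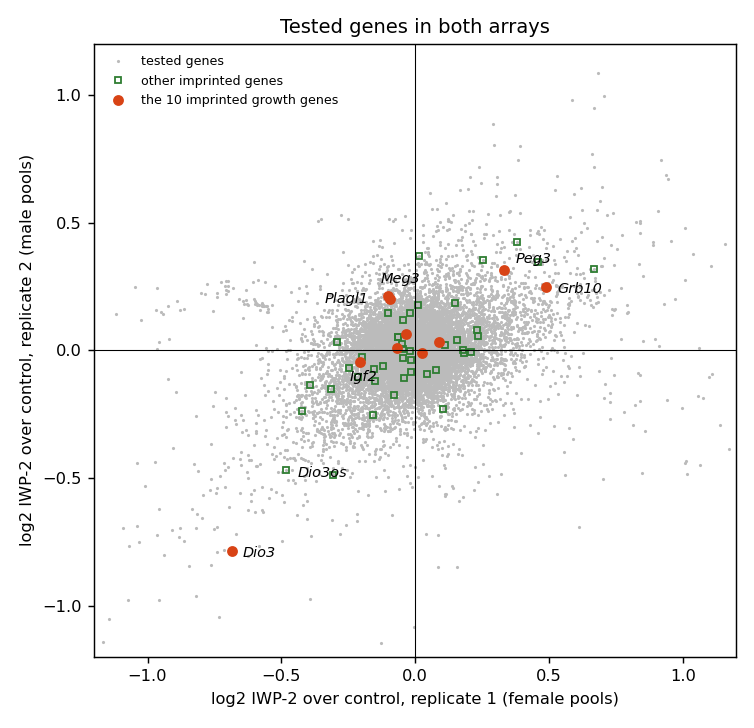
Log2 ratio of IWP-2 over control in replicate 1 (horizontal axis, female pools) against replicate 2 (vertical axis, male pools) for the 14336 tested genes (grey), the 43 tested other imprinted genes (green squares) and the 10 imprinted growth genes (orange). The axes end at 1.2 and leave out 44 tested genes. *Dio3* lay at −0.69 and −0.79, apart from the other 9 genes.

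*Dio3* acts on thyroid hormone together with other deiodinases, transporters and receptors. Of 18 such genes, 14 were tested and none were called by limma or the study's filter. At an unadjusted p under 0.05, 2 were lower (14.3%, beside 6.64% of all tested genes) and 3 higher (21.4%, beside 6.27%), and the median of the mean ratios was 0.00. *Dio2*, the deiodinase that activates T4, went from 183 to 155 and from 208 to 178, with ratios of −0.25 and −0.23 (limma adjusted p = 0.180). *Dio1*, the remaining deiodinase, was at the floor of 15 in all 4 channels. *Thra*, the receptor TRα, went from 3897 to 3498 in replicate 1 and from 3321 to 3687 in replicate 2, in opposite directions. The second receptor, *Thrb*, read only 21.0 to 31.8 in the 4 channels. *Slc16a10*, a transporter of thyroid hormone and aromatic amino acids, gave −0.48 and −0.21 (limma adjusted p = 0.138). *Ttr*, the carrier of T4 and retinol in blood, went from 717 to 1328 and from 818 to 1088, with a mean ratio of 0.65 (limma adjusted p = 0.0633). It was called higher with median centring or normexp background correction. *Me1*, which encodes malic enzyme and is the brightest gene of the list, gave 0.46 and 0.11 (limma adjusted p = 0.254). *Crym*, which encodes a protein that binds T3 in the cytosol, gave 0.42 and 0.25 (limma adjusted p = 0.115). *Dio2*, *Dio1*, *Thrb*, *Slc16a10*, *Ttr* and *Crym* were named after their values had been seen.

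Cell type markers were set beside these values. All 5 listed markers of the lamina propria, the fibrocyte layer beneath the urothelium, were lower in both arrays. Of all 14336 tested genes, 4172 were lower in both. Limma called 3 of the 5 markers lower (*Ahr*, *Aldh1a2* and *Avpr1a*), beside 0.886% of all tested genes. The study picked such markers on these samples, and these 5 are ones it reported as lower with IWP-2. Of further genes it named for this layer, *Axin2* and *Itga4* were also lower. *Bmp4*, *Foxf1* and *Ptch1* were not reported as lower, so the list does not stand for all genes of the layer. The summed signal of the 5 markers went from 26588 to 14729 in replicate 1 and from 20370 to 14911 in replicate 2. Of 6 urothelial markers, 5 were higher in both arrays (25.7% of all tested genes were), limma called 0 of the 6, and the sum went from 84832 to 110849 and from 103611 to 111508. Of 4 macrophage markers, 3 were higher in both arrays, limma called 0, and the sum went from 4116 to 4681 and from 4554 to 4901. No marker of these 3 lists was at the floor. In whole ureters, fewer cells of a type and less RNA per cell cannot be told apart. The lamina propria list was lower where *Dio3* was lower, and the sums of the urothelial and macrophage lists were higher where *Grb10* and *Peg3* were higher. Their part in these values was not tested. Of 4 adrenal and 4 kidney markers, *Cyp11b1* and *Star* of the adrenal and *Nphs1* and *Umod* of the kidney were at the floor in all channels. In each list 1 marker was above 100 in all channels, *Dbh* with control signals of 485 and 327 and *Six2* with 211 and 157.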

How the data were processed

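Each channel held cRNA from 1 pool of newborn ureters, with 1 array per sex. The authors deposited Agilent Feature Extraction output (version 12.2.0.7 per the file headers, 10.7.3.1 per the labels), in which the signals are intensities corrected for background and dye. The deposited files also hold the log10 ratio of red over green, used to check directions, and 0 or 1 flags for outliers and background. The deposited series table holds a score, a signed fold change of IWP-2 over control with 1 decimal (median 1 in both columns), used to check direction and as an alternative for the ratios and filter counts. Outlier-flagged spots (3.32% and 3.22%) were left out. Within an array, loess (span 0.3, limma 3.58.1, R 4.3.3) was applied, and signals were averaged over spots, floored at 15 and expressed as log2. The brightest probe represented a gene in counts over all genes.

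Ratios of genes whose mean signal exceeded 100 in either condition were tested against 0 with limma (1 residual degree of freedom), Benjamini-Hochberg at 0.05. With only 2 arrays, the estimates are imprecise. The p-values rest on moderated standard errors that draw on all tested genes, and not on a gene's own spread alone. For example, the imprinted gene *Gatm*, with ratios of −0.05 and −0.03, had a standard error of 0.066, as did *Dio3os*. The steps were tested on simulated data. The 10 genes and all lists were chosen with earlier results of these data known. Genes named from the lists were those called and up to 4 of the brightest, and others are stated as named after their values were seen. Positions are those of the array files (mm9). Promoters came from RefSeq (GRCm38.p6), and Python 3 scripts searched them. Alternatives changed the background, normalization, source of the ratios, flags, floor, probe summary, signal filter, fold threshold and arrays used. No further per-sample columns (0) were left unassigned. A few marker values and 1 probe sequence are not reported here.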

Additional observations from a re-analysis of the deposited data

Results flagged for a closer look

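The 5 genes whose differences are given below were lower in the female array and higher in the male array on their brightest probe. Each ratio exceeded 2 SDs of the spots. These 5 are not a complete count, because other listed genes also met this criterion. Examples are *Ncor1* of the thyroid hormone list (−0.08 and 0.08) and the smooth muscle marker *Cnn1* (−0.06 and 0.19). With 1 array per sex the differences between the arrays were not tested, and sex and dye cannot be told apart. Of all tested genes, 7.83% did the same. The ratio of *Meg3* was higher by 0.32 in the male array (log2 scale), that of *Plagl1* by 0.30 and that of *Mirg* by 0.25. For *Thra*, a thyroid hormone receptor, the difference was 0.31. For *Osbpl5*, a gene of the *Cdkn1c* cluster for an oxysterol-binding protein, it was 0.12.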

How the results depend on the processing

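*Dio3* was lower under all 13 alternatives, with a ratio from −0.79 to −0.68. Several of these could not change its ratio. They were the floor of 1, the mean over all probes (*Dio3* has 1), both changes of the signal filter and the 2-fold threshold. The alternatives with a single array use 1 of the 2 ratios behind the mean. At a 2-fold threshold its ratio of −0.74 no longer passed the study's filter, which then kept 19 genes as lower and 0 as higher. With the control well above background, and with no filter on signal, the filter kept 89 lower and 25 higher genes. Limma called 0 genes and 0 other imprinted genes in both settings (unadjusted p under 0.05 for 1213 lower and 900 higher, and for 1149 lower and 879 higher, with 11 and 7 of the other imprinted genes). In these settings 1673 and 11753 genes had exactly the same ratio in both arrays. With the deposited series table as the source of the ratios, the filter kept 62 lower and 16 higher genes. Without further loess, limma called 32 genes higher. With median centring it called 85 higher, 3 other imprinted genes (*Dio3os*, *Sfmbt2* and *Zim1*, the last tested only through its IWP-2 signal) and 1 thyroid hormone gene (*Ttr*), and the median ratio of the other imprinted genes was 0.031. With normexp it called 257 lower and 170 higher, 5 other imprinted genes (*Dio3os*, *Sfmbt2*, *Zim1*, *Inpp5f* and *Kcnq1*) and again *Ttr* (1 gene). With the mean over all probes of a gene it called 50 lower, 17 higher and 0 other imprinted genes, and the median of the thyroid hormone genes was 0.050. With a single array, the filter kept 78 to 160 lower genes, 25 to 112 higher genes and 0 to 1 thyroid hormone genes (*Ttr*, in the female array), and the median of the other imprinted genes ran from −0.041 to −0.0070. *Dio3os* had a ratio from −0.49 to −0.42 and an adjusted p from 0.0213 to 0.465. Over settings with both arrays, *Grb10* ranged from 0.36 to 0.41, *Peg3* from 0.32 to 0.40, *Igf2* from −0.13 to −0.09 and *Dlk1* from −0.05 to 0.02, so that *Dlk1* has no stable direction. The causes of these changes were not tested. Each ratio is taken within an array between pools of the same replicate, so the test of ratios against 0 already uses this pairing. No separate paired analysis was run. Values rest on 2 arrays, and *H19* probe 2 read close to the floor.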
